A study of Mus musculus with 6 samples.

Results

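The mRNAs described here encode 10 proteins, other than AUF1, that bind the 3′ untranslated regions (UTRs) of cytokine mRNAs: Zfp36, Zfp36l1, Zfp36l2, Khsrp, Elavl1, Tia1, Tial1, Zc3h12a, Rc3h1 and Rc3h2. They were picked by gene symbol from the 55254 genes of the count table, for the known binding of their proteins to AU-rich elements or stem-loops. No rule on their values was used, but earlier results of these data were known when they were chosen. The study asked what the loss of AUF1, the product of hnRNPD (Hnrnpd), changes in activated macrophages. Bone marrow-derived macrophages (BMDMs) of C57BL/6J mice aged 6 to 8 weeks were grown for 10 days in medium conditioned by L929 cells and treated with 100 ng/ml LPS for 4 hours, 3 cultures per group. Control cultures were hnRNPDfl/fl, with loxP sites around exons 3 and 4 in both alleles and no Cre, and M-Δx3,4 cultures were LysCre+ hnRNPDfl/fl, where the LysM (Lyz2) promoter drives Cre in myeloid cells. Cre was present only in M-Δx3,4, so Cre and the deletion cannot be told apart, and every culture received LPS, so the response to LPS itself was not measured. RNA was sequenced from the 3′ ends of polyadenylated transcripts (QuantSeq), and a value below is the reads counted on the 3′ UTR region of a transcript, divided by a library factor (a normalized count).

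AU-rich elements are stretches rich in A and U, many with single or overlapping AUUUA motifs, in the 3′ UTRs of short-lived mRNAs. Zfp36 (tristetraprolin) and its paralogs bind them and recruit the CCR4-NOT deadenylase, Khsrp promotes decay through the exosome, Elavl1 (HuR) protects bound mRNAs, and Tia1 and Tial1 hold back translation. Zc3h12a (Regnase-1, a nuclease) and Rc3h1 and Rc3h2 (Roquin-1 and Roquin-2) recognize instead short hairpins with a loop of pyrimidine, purine and pyrimidine. Several of these proteins act on their own mRNAs, which makes the sequence of the members' 3′ UTRs part of the picture.

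The first set of sequences shows the AU-rich heptamer TATTTAT, written as DNA in capitals, in the 3′ UTR exons of the Zfp36 family, of Elavl1 and of the cytokine mRNA Tnf. Sequences come from the GENCODE transcripts of mouse build GRCm38, read along the transcript (here the minus strand for all 5 sites).
Zfp36, chr7:28376948-28376977: tgacgacttTATTTATtgtattaagatttt
Zfp36l1, chr12:80108164-80108193: ctgttggatTATTTATtttagaaattctcc
Zfp36l2, chr17:84184911-84184940: tatttaactTATTTATtatcttgtgaaaag
Elavl1, chr8:4285778-4285807: atTATTTATTTATTTATTTATttttattta
Tnf, chr17:35199686-35199715: tgcacttatTATTTATTATTTATTTATtat
The windows of Elavl1 and Tnf hold chains of overlapping heptamers, whereas those of the Zfp36 family hold a single one.

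The second set shows hairpins of 5 Watson-Crick pairs around a 3-base loop of pyrimidine, purine and pyrimidine, with the stem and loop in capitals, in 3′ UTR exons of the members that bind such hairpins and of the targets Tnf and Nfkbiz. The sites lie on the minus strand of GRCm38, except that of Rc3h1 on the plus strand.
Rc3h1, chr1:160971653-160971682: agccaataACTTCTGTGAAGTtgccttttc
Rc3h2, chr2:37373801-37373830: tttaattaACTTCTGTGAAGTtgtttactc
Zc3h12a, chr4:125119061-125119090: ccctgttgATACACATTGTATctctgtcat
Tnf, chr17:35199577-35199606: cagacatgTTTTCTGTGAAAAcggagctga
Nfkbiz, chr16:55812606-55812635: tgtaagttGTTTCTATGAAACaaacccatt
The 13 capital letters of Rc3h1 and Rc3h2 were the same although the genes lie on different chromosomes. Of the 4 hairpins found in the Rc3h1 3′ UTR and the 2 found in that of Rc3h2, 2 were identical in letters. The second of these, not printed, held only A and T. In Rc3h1 it overlapped another of the 4 (starts at bases 2002 and 2005 of the 3′ UTR).

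The heptamer TATTTAT was present in the 3′ UTR of 8 of the 10 members and in 28.9% of the 10045 tested genes with an annotated 3′ UTR. Its extension TTATTTATT, which contains the heptamer, was found in 6 of 10 members and 7.39% of genes, and a hairpin in 5 of 10 and 23.5%. Only the transcript strand was searched, and AU-rich hairpins can overlap the AU-rich motifs. The members' 3′ UTRs were long, with a median of 2295 bases against 1174 over all genes, and long UTRs hold any motif more often. Among genes whose 3′ UTR had 80% to 125% of the length of that of Zfp36 (774 bases), 18.3% held the heptamer, of which Zfp36 held 3. Among genes of a length like Elavl1 (4218 bases) the share was 58.5%, and Elavl1 held 8. Khsrp held none, nor did Zc3h12a, which had 3 hairpins in 856 bases, where 15.1% of genes of like length had at least 1. For the hairpins of Rc3h1 and Rc3h2 the like-length shares were 72.8% and 59.3%, and 51.9% for Elavl1, which had none. A match of letters is a description and does not show binding.

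Each transcript was summed over its regions, and each gene stood by its transcript with the highest mean. Library totals over all transcripts ran from 5852374 to 9008878 counts, where a read in overlapping regions counts more than once. With 1 transcript per gene they ran from 2503128 to 3846212. Hnrnpd was checked first, by its p37 transcript: control libraries had 177.8, 104.2 and 69.6 normalized counts and M-Δx3,4 libraries 52.8, 12.6 and 16.0, without overlap. The log2 fold change was -2.11 (standard error (SE) 0.54, unadjusted p = 0.00144, adjusted p = 0.984 by edgeR). By the Hnrnpd transcript with the highest mean (ENSMUST00000172361), whose longer region contains that of p37, the groups overlapped (209 ± 117 against 141 ± 18.3 normalized counts). Its log2 fold change was -0.57 (SE 0.41, unadjusted p = 0.183, adjusted p = 0.984 by edgeR). Reads at 3′ ends do not show exons 3 and 4. All 10 markers of LPS-activated macrophages were above 3 counts, with a summed level of 23757.5 to 28557.3 in control and 26802.1 to 28035.1 in M-Δx3,4 libraries. Lyz2, whose promoter drives the Cre, was the 1 of these 10 markers without overlap, beside 8.44% of all genes. It had 1992.1, 1788.0 and 2200.8 normalized counts in control and 1342.0, 881.7 and 968.2 in M-Δx3,4 libraries. The log2 fold change was -0.91 (SE 0.30, unadjusted p = 0.0089, adjusted p = 0.984 by edgeR). The summed level of neutrophil markers was 167.6 to 526.5 in control and 320.2 to 443.8 in M-Δx3,4, with Ly6g and Elane at or under 3 counts, and the sums of B cell, T cell, dendritic cell and fibroblast markers were at most 43.0 in any library. Control replicates 1 and 3 were the least alike of all pairs of libraries (Pearson r = 0.764 across 4723 genes), and values without either are given where they change a member's result. The sum of the Y-linked Ddx3y, Uty, Kdm5d and Eif2s3y was 1.2, 32.7 and 3.5 normalized counts in control and 31.3, 54.4 and 56.6 in M-Δx3,4 libraries, the sex of the mice is not given in the sources used here, and its part in any result was not tested. In a bulk culture, fewer cells of a type and less RNA per cell cannot be told apart.

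All 10 members had counts in these macrophages, and their levels differed widely. In the authors' TPM, which divide by the length of the counted region, Zfp36 was the most abundant member in control BMDMs, at 92.5 ± 22.7 (SD, n = 3), followed by Zc3h12a at 46.8 ± 9.51. Elavl1 had 3.07 ± 0.622 TPM, Rc3h2 2.93 ± 3.33 and Zfp36l2 2.47 ± 1.63, and the libraries of neighbours among these 3 overlapped. The remaining 5 were under 1 TPM on average, in the order Khsrp (0.884 ± 0.233), Tial1 (0.738 ± 0.425), Zfp36l1 (0.372 ± 0.129), Rc3h1 (0.193 ± 0.186) and Tia1 (0.135 ± 0.127). Normalized counts, which are not divided by length, gave another order: Rc3h2 (mean 210 in control) was above Elavl1 (191), and Tial1 (30.2) and Rc3h1 (26.3) were above Khsrp (23.0). Reads from a 3′ end do not grow with the length of the region, so the rank of members with long regions depends on the scale. The Elavl1 TPM divide by a region of 4467 bases, although almost all of its reads fell on the 1506-base region of a shorter form. Between neighbours in the order by TPM, the control libraries stood apart only from Zfp36 to Zc3h12a, from Zc3h12a to Elavl1 and from Zfp36l2 to Khsrp. In M-Δx3,4 BMDMs the means of Zfp36 and Zc3h12a were again the highest, at 74.2 ± 11.2 and 41.2 ± 6.75 TPM, and that of Elavl1 was 5.31 ± 0.272. The inducible decay factors Zfp36 and Zc3h12a were thus the most abundant mRNAs of the group in these LPS-treated cells of either genotype.

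**Figure D1:**
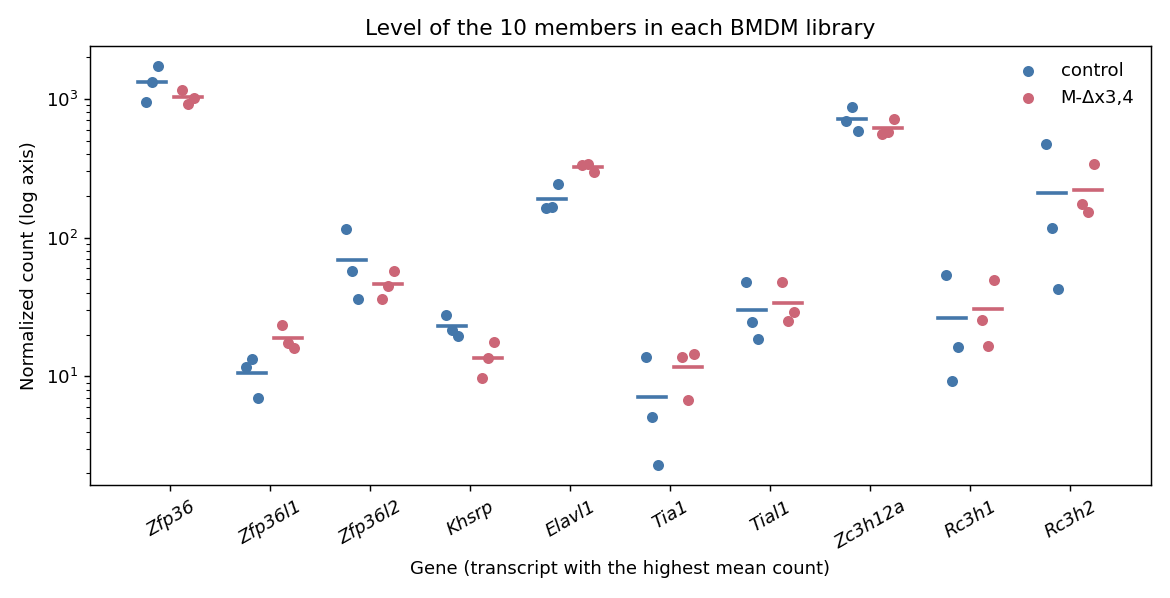
Normalized count (log axis) of each of the 10 members in the 3 control (blue) and 3 M-Δx3,4 (red) libraries, in replicate order, with a bar at the group mean. The groups stand apart for Elavl1 (163.9 to 243.6 in control, 298.8 to 336.0 in M-Δx3,4), Zfp36l1 and Khsrp, and the control libraries of Rc3h2 spread from 42.9 to 470.7.

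Of the 10 members, 1 (Elavl1, higher in M-Δx3,4) passed an unadjusted p of 0.05 by the quasi-likelihood test of edgeR, where 3.98% of the 11875 genes tested did (1.45% higher and 2.53% lower). None passed that p together with an absolute log2 fold change of 1, against 3.07% of genes. By edgeR no member and no other gene had an adjusted p under 0.05 (0 of 11875, with 473 at an unadjusted p under 0.05), and over the 32475 transcripts DESeq2's Wald test gave 4. For 3 of the 10 members the 2 groups stood apart with no overlap, Elavl1 and Zfp36l1 being higher and Khsrp lower in M-Δx3,4, where 8.44% of all genes did not overlap (4.18% higher and 4.26% lower). All 10 members had passed the filter on low counts. Of the 10, 6 had a log2 fold change above 0, beside 49.5% of all genes. Their median log2 fold change was 0.13 and the median of its absolute value 0.48, beside -0.01 and 0.36 over all genes.

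Elavl1 encodes HuR, the member that stabilizes AU-rich mRNAs. The study had already named Elavl1 among RNA regulators in its set of differing transcripts. That set came from a combination of tests and an absolute log2 fold change over 1. Here the Elavl1 transcript with the highest mean (ENSMUST00000098950) stood at 163.9, 165.5 and 243.6 normalized counts in control replicates 1 to 3, and at 330.6, 336.0 and 298.8 in the M-Δx3,4 replicates. Every M-Δx3,4 library lay above every control library, and control replicate 3 was the control nearest to them (two-sided exact permutation test, p = 0.1, the lowest value that 3 against 3 can give). The log2 fold change was 0.75 (SE 0.32), with an unadjusted p of 0.0341 and an adjusted p of 0.984 by edgeR. From the summed reads, 513 in control and 1075 in M-Δx3,4, the ratio of the groups after scaling by the library factors was 1.68. Its 95% counting interval was 1.51 to 1.87, which leaves out the spread between cultures. The call is not firm: in 5 of the 6 fits that each left out 1 library the unadjusted p was over 0.05, at most 0.128 (control replicate 2 left out), and it was 0.00989 without control replicate 3. The log2 fold change stayed between 0.66 and 0.98 in these fits. With the dependence of each library on the GC content of the 3′ UTR (here the long form) removed, it was 0.50 (unadjusted p = 0.147 in edgeR).

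The counts of Elavl1 fell almost wholly on its proximal 3′ end. Both annotated forms share a stop codon but have 3′ UTRs of 1257 and 4218 bases, and the counted regions ran 249 bases past either end. The 8 heptamers start 3795 to 3841 bases after the stop codon, 4 of them in the window printed above, so all belong to the long form alone, and the short form holds 3 of the 17 ATTTA pentamers. The last 30 bases of the short form and a window that ends near the end of the long form are shown for the poly(A) signal they hold, in capitals (minus strand of GRCm38).
Elavl1 short end, chr8:4288343-4288372: gaccATTAAAtttgattttgttttgctcga
Elavl1 long end, chr8:4285392-4285421: tcAATAAAgtctgacattgctgtccaaagt
Reads beyond the region of the short form made up 2.13%, 1.23% and 2.38% of the Elavl1 counts in control libraries and 5.03%, 2.31% and 1.79% in M-Δx3,4 libraries. M-Δx3,4 replicate 1 had the highest share (17 of 338 reads, 95% exact binomial interval 2.96% to 7.93%), and the groups overlapped. The means were 1.91% ± 0.602 and 3.04% ± 1.74 (SD, n = 3, two-sided exact permutation test, p = 0.5), so a difference in the use of the 2 ends was not detectable with 2 to 17 distal reads per library. The row of the short form (ENSMUST00000209010) had a log2 fold change of 0.74 (SE 0.32), from reads that it shares with the long form.

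**Figure D2:**
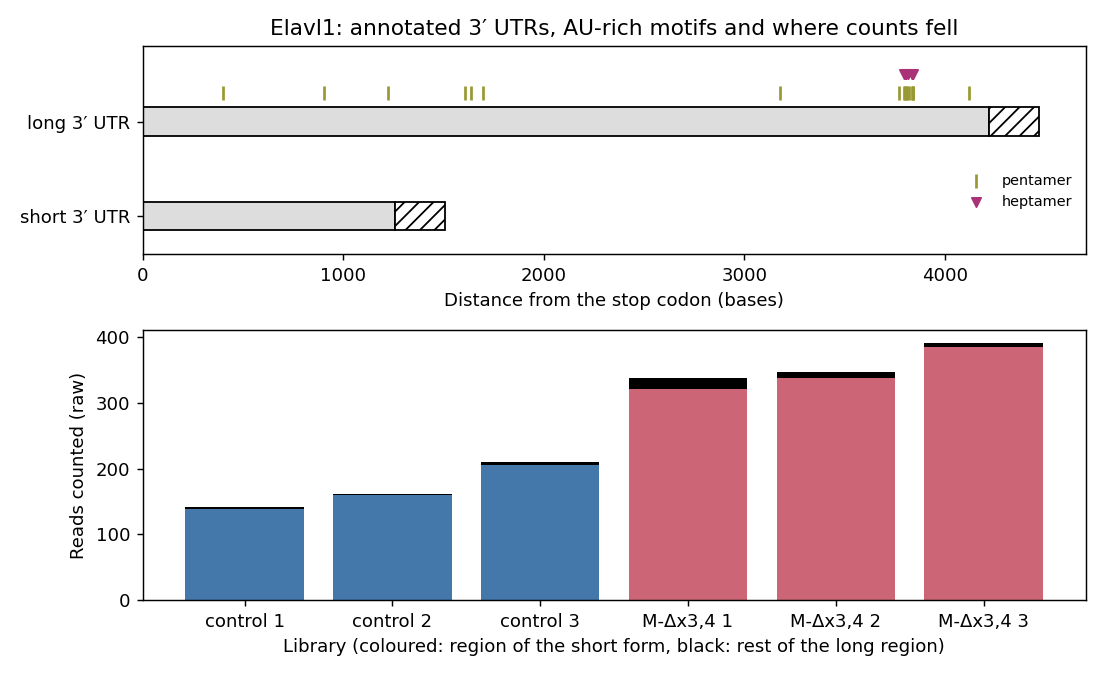
Upper panel: the short (1257 bases) and long (4218 bases) 3′ UTR of Elavl1 as distance from the stop codon, with hatched the 249 bases counted past each end, ticks at the 17 ATTTA pentamers and triangles at the 8 TATTTAT heptamers, which all sit beyond the short form. Lower panel: raw reads per library in the region of the short form (blue control, red M-Δx3,4) and in the rest of the long region (black), which held between 2 and 17 reads.

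Zfp36 encodes tristetraprolin, the decay factor that LPS induces and that binds the AU-rich element of Tnf. Its control libraries read 939.1, 1319.0 and 1722.8 normalized counts, those of M-Δx3,4 1150.3, 913.7 and 1011.0. Control replicate 1 lay within the range of the M-Δx3,4 libraries and the other controls above it, so the groups overlapped. The log2 fold change was -0.37 (SE 0.31, unadjusted p = 0.255 in edgeR and 0.3 in the exact permutation test), it ran from -0.57 to -0.13 with single libraries left out, and it was -0.51 (p = 0.126 in edgeR) with the GC trend removed.

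The paralog Zfp36l1 had few reads, with 11.6, 13.3 and 7.0 normalized counts for control against 23.5, 17.5 and 16.0 in M-Δx3,4. All M-Δx3,4 libraries were above all controls (two-sided exact permutation test, p = 0.1), yet the log2 fold change of 0.82 had an SE of 0.52 (unadjusted p = 0.132 in edgeR). With 29 reads in control and 63 in M-Δx3,4, the ratio scaled by the library factors was 1.75 with a counting interval of 1.11 to 2.81. The other paralog, Zfp36l2, went from 115.1, 57.2 and 36.0 normalized counts in control to 36.2, 44.7 and 57.3 in M-Δx3,4. Its groups overlapped, and the highest value was that of control replicate 1. The log2 fold change was -0.59 (SE 0.45, unadjusted p = 0.216 in edgeR and 0.7 in the exact permutation test). It was -0.01 when control replicate 1 was left out and -0.88 when control replicate 3 was, the latter with an unadjusted p of 0.046 by edgeR in a fit where 2.6% of all genes were under 0.05.

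Khsrp, the KH-domain protein that brings AU-rich mRNAs to the decay machinery, was the member with the most negative log2 fold change, -0.74 (SE 0.48, unadjusted p = 0.141 in edgeR). Its control libraries had 27.9, 21.5 and 19.7 normalized counts, those of M-Δx3,4 9.8, 13.6 and 17.6. No M-Δx3,4 library reached the lowest control, although M-Δx3,4 replicate 3 came near it (two-sided exact permutation test, p = 0.1). The ratio from 62 and 47 reads, scaled by the library factors, was 0.609 with a counting interval of 0.408 to 0.905. The log2 fold change stayed between -0.97 and -0.56 with single libraries left out and was -0.66 with the GC trend removed.

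A ratio of 2 mRNAs within a library is not touched by the scaling between libraries. Elavl1 was set against each of the other 9 members in this way, and in 2 of the 9 ratios the groups did not overlap. Elavl1 on its own already stood apart between the groups. The share of all tested genes whose ratio to Elavl1 does not overlap was not computed, so 2 of 9 has no background beside it. Elavl1 to Zfp36 was 0.175, 0.125 and 0.141 in control and 0.287, 0.368 and 0.296 in M-Δx3,4 libraries, a ratio of means of 2.15. Elavl1 to Khsrp was 5.88, 7.71 and 12.4 in control and 33.8, 24.7 and 17.0 in M-Δx3,4, a ratio of means of 2.91. The Khsrp ratio could not overlap, since Elavl1 was higher and Khsrp lower in every M-Δx3,4 library, and it is given with no test. For the Zfp36 ratio the two-sided exact permutation test gave p = 0.1, the lowest of this design. These ratios all share the Elavl1 values and were added with the levels of the members already known. Against Zc3h12a the groups overlapped (M-Δx3,4 to control ratio of means 1.89, exact permutation test p = 0.2).

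Tia1 and Tial1, the stress granule proteins that silence the translation of AU-rich mRNAs, were expressed at low levels. Tia1 (ENSMUST00000113712) had 13.9, 5.1 and 2.3 normalized counts for control against 13.7, 6.8 and 14.5 in M-Δx3,4, and 2 of the control libraries lay under all M-Δx3,4 libraries. Its log2 fold change was 0.71 (SE 0.70, unadjusted p = 0.326 in edgeR) from 19 and 40 reads, and between 0.32 and 1.61 with single libraries left out. Tial1 (ENSMUST00000106226) had 47.7, 24.5 and 18.6 normalized counts for control against 47.9, 25.2 and 29.0 in M-Δx3,4. In either group replicate 1 was the highest and the ranges overlapped (log2 fold change 0.17, SE 0.47, unadjusted p = 0.720 in edgeR), and the sign turned with the GC trend removed (-0.07). Of the 7 distinct rows of Tial1 that could be tested, 6 had log2 fold changes from 0.17 to 0.36, and the row of a distal end (ENSMUST00000141079) had -0.44 (SE 0.90) from 19 and 17 reads.

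Zc3h12a encodes Regnase-1, which cleaves hairpin-bearing mRNAs such as Il6 and its own. Normalized counts were 693.9, 872.5 and 583.6 for the control cultures, with 552.7, 577.8 and 716.1 for M-Δx3,4. The groups overlapped, with M-Δx3,4 replicate 3 above 2 of the controls (log2 fold change -0.22, SE 0.31, unadjusted p = 0.485 in edgeR). It was -0.05 without control replicate 2, between -0.34 and -0.05 over the fits that each left out 1 library, and -0.07 with the GC trend removed.

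The Roquin mRNAs varied widely among the control cultures. Rc3h2 had 470.7, 116.5 and 42.9 normalized counts for control against 173.1, 153.4 and 337.8 in M-Δx3,4, so that the controls held both the highest and the lowest value and differed by 11.0-fold. Rc3h1 had 53.5, 9.2 and 16.2 in control and 25.4, 16.5 and 49.7 in M-Δx3,4. For both genes control replicate 1 was the highest library and M-Δx3,4 replicate 3 the next. The log2 fold changes were 0.08 (SE 0.61) for Rc3h2 and 0.23 (SE 0.60) for Rc3h1, with unadjusted p of 0.899 and 0.703 in edgeR. With all libraries kept they were 0.65 and 0.49 by limma-voom and 0.56 and 0.42 with a replicate block, none with an unadjusted p under 0.05. Without control replicate 1 they were 1.47 and 1.28 (edgeR's unadjusted p 0.0042 and 0.0349, below what an exact test of 2 against 3 can give), in a fit where 15.7% of all genes were under 0.05 and 11% also passed the fold change. With other single libraries left out they fell to -0.39 and -0.32. Almost all Rc3h2 reads lay in the distal part of its 3′ UTR region, at 99.5% ± 0.440 in control and 98.9% ± 1.83 in M-Δx3,4 (SD, n = 3, two-sided exact permutation test, p = 1.0).

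**Figure D3:**
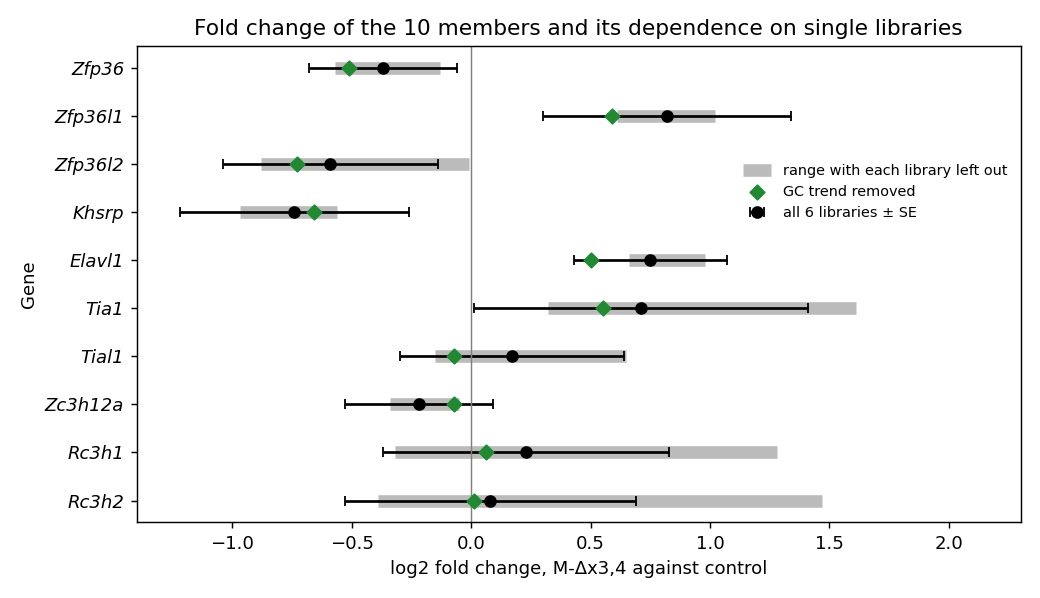
Log2 fold change of each member, M-Δx3,4 against control (black point ± SE, 6 libraries), with the range over the fits that each left out 1 library (grey) and the value with the GC trend removed (green diamond). Elavl1 stays on the higher side (0.66 to 0.98) and Khsrp on the lower side (-0.97 to -0.56), whereas Tial1, Rc3h1 and Rc3h2 cross 0.

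Across the members, 32 distinct sets of counts came from the 43 transcripts with a count (of 74 listed), and 21 of them passed the filter. There were 2 of these 21 rows with an unadjusted p under 0.05 in edgeR, both of Elavl1 and sharing most reads, beside 4.13% of all 32475 transcripts tested. The groups did not overlap in 4 of the 21, beside 8.88% of all transcripts: the pair of Elavl1 rows, Zfp36l1 and Khsrp. In 6 of the 10 members only a single row could be tested.

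The spread within the control group went with the base composition of the members' 3′ UTRs. From Rc3h2, with 33.8% GC, to Zc3h12a, with 53.5%, the ratio of control replicate 1 to control replicate 3 was 11.0 for Rc3h2, 2.57 for Tial1 (35.2% GC), 3.29 for Rc3h1 (37.2%) and 6.01 for Tia1 (38.2%). It was 1.67 for Zfp36l1 (39.8%), 3.2 for Zfp36l2 (40.1%), 0.673 for Elavl1 (41.8%), 0.545 for Zfp36 (43.7%), 1.41 for Khsrp (50.6%) and 1.19 for Zc3h12a. The GC content of Elavl1 is that of its long 3′ UTR, although almost all of its reads fell on the region of the short form. Over the 10 members the log2 of this ratio and the GC content had a Pearson r of -0.62 and a Spearman rho of -0.79, as a description, since the points share both libraries. The trend over the series was taken from tested transcripts with a mean of at least 20 normalized counts, in 20 bins of GC content. The median log2 deviation of a bin was set relative to the library's overall median. In the lowest bin it was 0.405 in control replicate 1, -0.447 in control replicate 3 and 0.357 in M-Δx3,4 replicate 3, and in the highest bin -0.442, 0.622 and -0.283. Removing the trend as an offset, an alternative added after the values were seen, left none of the 10 members with an unadjusted p under 0.05 in edgeR, since Elavl1 moved to 0.50.

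**Figure D4:**
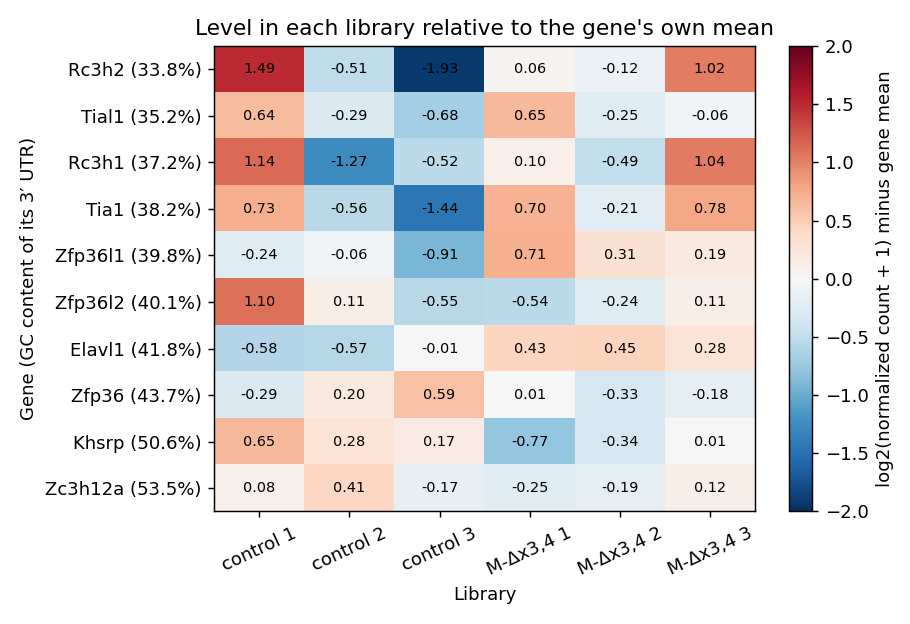
Each cell is log2(normalized count + 1) of a member in a library minus the member's mean over the 6 libraries. Members are ordered by the GC content of their 3′ UTR (for Elavl1 the long form). Control replicate 1 is high and control replicate 3 low for the 4 members with the least GC (1.49 and -1.93 for Rc3h2), and the M-Δx3,4 libraries of Elavl1 are all above its mean (0.43, 0.45 and 0.28).

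Lists of related genes gave few calls, and over all 11875 genes tested 3.98% had an unadjusted p under 0.05 by edgeR. Of 26 other RNA-binding proteins of the same families or with similar targets, 21 could be tested and 0 were under an unadjusted p of 0.05 by edgeR (1 by DESeq2's Wald test), with 11 log2 fold changes above 0, 10 below and a median of 0.04.

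Of 38 partners of the members, the deadenylases, decapping and exosome factors and the kinases that regulate them, 36 could be tested, and 22 of the log2 fold changes were above 0 (median 0.15). The 1 with an unadjusted p under 0.05, beside 3.98% of all genes, was Mknk1 (MNK1, the kinase of eIF4E), which was lower in M-Δx3,4. Control libraries had 30.2, 30.7 and 40.6 normalized counts and M-Δx3,4 libraries 19.6, 14.6 and 15.3, without overlap (log2 fold change -1.03, SE 0.43, unadjusted p = 0.0295, adjusted p = 0.984 in edgeR). With all libraries kept it was just over 0.05 by DESeq2's Wald test (0.051) and by edgeR with no filter on low counts (0.0522), while the log2 fold change was -1.04 and -1.03. In 3 of the 6 fits without 1 library (control replicate 3, M-Δx3,4 replicate 2 or M-Δx3,4 replicate 3) its unadjusted p was over 0.05, with log2 fold changes from -1.17 to -0.87. The groups did not overlap in 5 of the 36, beside 8.44% of all genes. Beside Mknk1, and named after their values were seen, these were Cnot10 of the CCR4-NOT complex (log2 fold change -0.65) and the decapping activator Edc3 (-0.67), lower, and the phosphatase subunit Ppp2ca (0.37) and the poly(A)-binding protein Pabpc1 (0.62), higher in M-Δx3,4. None of these 4 had an unadjusted p under 0.05 in edgeR.

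The mRNAs that the members are known to bind were listed as well. Of 26 mRNAs with AU-rich elements, Zfp36 among them, 24 could be tested, 11 had a log2 fold change above 0 and the median was -0.09. Cxcl3, a neutrophil chemokine, was the 1 with an unadjusted p under 0.05 (3.98% of all genes). It had 6, 1 and 7 reads in control and 0, 0 and 1 in M-Δx3,4 libraries. The ratio scaled by the library factors was 0.0574, with a counting interval of 0.00136 to 0.377. Cxcl3 passed the filter on low counts only through control libraries, at 7.0 and 8.1 normalized counts. Its call and its lack of overlap are therefore not independent of that filter. Leaving out control replicate 1, control replicate 3, M-Δx3,4 replicate 1 or M-Δx3,4 replicate 2 ended this call, at log2 fold changes of -3.51, -3.31, -3.34 and -3.34 against -3.73 with all libraries. Cxcl3 and Dusp1 were the 2 of the 24 without overlap, beside 8.44% of all genes. Dusp1, a phosphatase that inactivates p38, was named after its values were seen (229 ± 99.1 normalized counts for control, 146 ± 21.5 in M-Δx3,4, log2 fold change -0.65, SE 0.37). Both stood apart by very little: Cxcl3 had 1 read each in control replicate 2 and M-Δx3,4 replicate 3, and Dusp1 had 164.5 and 164.3 normalized counts in these libraries.

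Tnf, the classic target of Zfp36, had 2844.1, 2792.3 and 3964.3 normalized counts for control against 2732.0, 4885.2 and 3523.7 in M-Δx3,4, with overlap (log2 fold change 0.21, SE 0.31). Il6 had a log2 fold change of 0.02 (206 ± 65.4 against 209 ± 49.0 normalized counts) and Ptgs2 of 0.93 (SE 0.92), the latter with means of 3.82 and 7.19 normalized counts only. Of 14 mRNAs with Regnase-1 or Roquin hairpins, 12 could be tested, 8 had a log2 fold change above 0 and the median was 0.21. Rel, the NF-κB subunit c-Rel, was the 1 with an unadjusted p under 0.05 (3.98% of all genes). Its log2 fold change exceeded 1, which together with that p held for 3.07% of all genes in absolute value. The control libraries had 133.7, 54.1 and 49.9 normalized counts and those of M-Δx3,4 183.9, 101.0 and 201.7. Control replicate 1 lay above M-Δx3,4 replicate 2, so the groups overlapped (log2 fold change 1.04, SE 0.44, unadjusted p = 0.0329, adjusted p = 0.984 in edgeR). Its unadjusted p was over 0.05 in 4 of the 6 fits without 1 library (control replicate 2 or 3, M-Δx3,4 replicate 1 or 3), with a range of 0.80 to 1.64 for the log2 fold change, the highest without control replicate 1. None of the 12 stood apart without overlap, beside 8.44% of all genes. Nfkbiz, which holds 2 such hairpins, had 212 ± 56.5 normalized counts for control and 262 ± 49.0 for M-Δx3,4 (log2 fold change 0.31, SE 0.34). These target lists share Tnf, Il6, Ptgs2 and other genes and are not independent of each other.

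**Figure D5:**
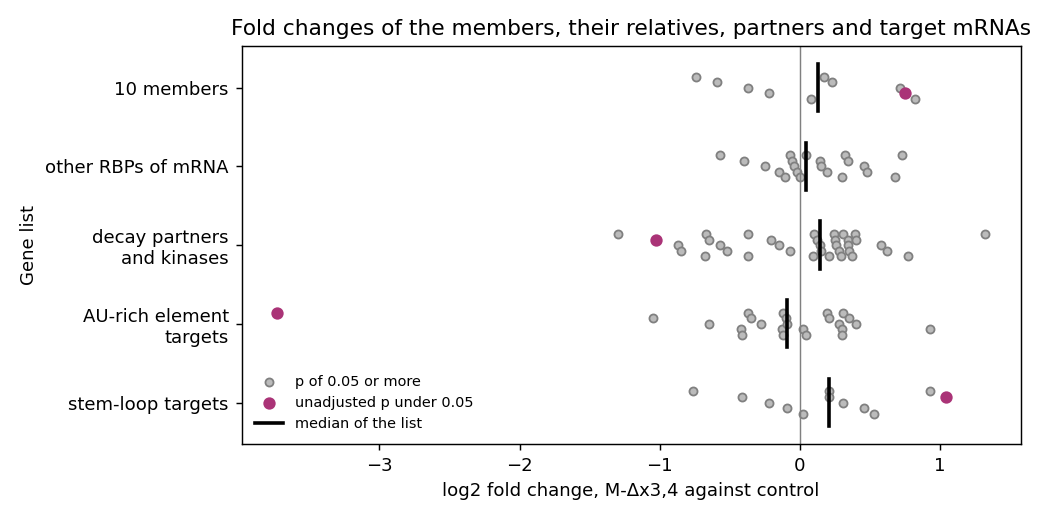
Log2 fold change (M-Δx3,4 against control) of each tested gene of the 5 lists, with the list's median as a bar and genes with an unadjusted p under 0.05 in purple. The medians lie between -0.09 and 0.21, and the genes in purple are Elavl1, Mknk1, Cxcl3 and Rel.

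The members did not follow 1 pattern over the 6 libraries. Tia1 and Rc3h2 were the most alike pair (Pearson r = 0.92 of log2(normalized count + 1)), and Rc3h1 and Rc3h2 had r = 0.78, while Elavl1 and Khsrp had r = -0.86. With only 6 libraries, all of them shared, these are descriptions. Among the 4723 genes with a mean of at least 50 normalized counts, the 2 most like Zfp36 were Csf1r (r = 0.998) and Selplg (0.9973), and those most like Rc3h2 were Slfn5 (0.9963) and Hpgds (0.9934). For Elavl1 they were Cat (0.9789) and Dazap2 (0.9541) and for Zfp36l2 Cd44 (0.9754) and Snrpa1 (0.9671). Dnajc16 (0.9763) was the gene most like Zc3h12a.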

How the data were processed

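Reads of 3 control and 3 M-Δx3,4 BMDM libraries (QuantSeq, Ion Proton) were mapped by the authors (TopHat2 2.1.1 and Bowtie2 2.3.2 in the submitters' processing notes, build mm10, GRCm38.p6) and counted with metaseqR2 on 3′ UTR regions of Ensembl transcripts. The authors deposited raw counts per region and, per transcript, TPM values, which were used only to compare levels between genes. Columns of the authors' own comparison (fold changes and p-values) and 18 further per-sample columns were not used.

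Here the counts were summed per transcript, scaled by the median of ratios (edgeR 4.0.16, R 4.3.3) and kept where a library exceeded the median of all normalized counts (4.89), leaving 32475 transcripts of 11888 genes. The groups were compared with edgeR's quasi-likelihood F test, p-values being adjusted by Benjamini-Hochberg over all transcripts, and single values by the exact permutation test. Counting intervals (95%) and the floor of 3 counts cover counting error only. The labels do not say whether cultures came from separate mice, so p-values measure the spread between these samples. Regions of transcripts of 1 gene overlap and share reads. The members, lists and alternatives were chosen with earlier results of these data known. All members were named, of each list the genes with an unadjusted p under 0.05 and Tnf, Il6, Nfkbiz and Ptgs2, and the 2 genes most like each member with a mean of at least 50 (some results are not reported here). Alternatives were TMM, library totals, DESeq2 1.42.0, limma-voom (limma 3.58.1), other filters, 1 transcript per gene, a gene-level sum, a replicate block and each library left out. The GC trend (20 bins) and the ratios to Elavl1 were added after seeing the data. The test was tried on simulated data first. Sequences and 3′ UTRs came from GENCODE transcripts. For Rc3h1 the 3′ UTR of ENSMUST00000161609 was used, as the counted transcript with the highest mean was not in that annotation. Python 3.11.15 was used for the rest.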

Additional observations from a re-analysis of the deposited data

How the results depend on the processing

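With all libraries kept, 1 member had an unadjusted p under 0.05 in every planned fit. With the GC trend removed, added after seeing the data, it was 0 members and 0 of their distinct rows, with 3 AU-rich targets, 2 partners, 1 relative and 2 stem-loop targets, and Tial1 turned to -0.07. The partners called were 2 under TMM, library totals, DESeq2, limma-voom, no filter, 1 transcript per gene and the replicate block (without Mknk1 under DESeq2 and no filter), and 3 with at least 10 counts in every library, where 0 AU-rich targets remained and Zfp36l1, Tia1 and Rc3h1 could not be tested. DESeq2 called 1 relative. Over all transcripts 118 had an adjusted p under 0.05 with no filter. With single libraries left out the counts called ran from 0 to 2 members (2 without control replicate 1, Rc3h1 and Rc3h2, and 2 without control replicate 3, Elavl1 and Zfp36l2), 0 to 2 members past the threshold, 0 to 4 distinct rows, 0 to 3 AU-rich targets, 0 to 6 partners, 0 to 6 relatives and 0 to 2 stem-loop targets, the highest of each list being without control replicate 1, where 15.7% of all genes were under 0.05. The log2 fold changes then ran from -0.15 to 0.65 for Tial1, from -0.32 to 1.28 for Rc3h1, from -0.39 to 1.47 for Rc3h2 and from -3.02 to -1.69 for Hnrnpd. Libraries numbered 2 deviated together (correlation 0.537), those numbered 1 and 3 did not (-0.213 and -0.309), so the numbers were not taken to pair the cultures, and under the replicate block Elavl1 had 0.78 (unadjusted p = 0.0444 in edgeR) and Hnrnpd -2.26. The cause of these shifts was not tested. Setting the short part of a 3′ region against the whole in place of the distal part was not run, since it is the complement of the reported share. Depth limits the members with under 100 reads per group the most.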
